A study of Homo sapiens with 10 samples.

Results

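SR proteins and hnRNPs are the 2 large families of RNA-binding proteins that set which exons enter a messenger RNA. Their genes were picked by symbol, as the protein-coding genes named SRSF with a number, the protein-coding genes whose symbol starts with HNRNP, TRA2A, TRA2B, PTBP1, PTBP2 and PTBP3. This gave 44 genes among the 58395 in the count files, 14 in the SR class (the SRSF and TRA2 genes) and 30 in the hnRNP class (the HNRNP and PTBP genes). With genes of very low count removed, 39 of the 44 were tested among 16905 genes, 13 of the SR class and 26 of the hnRNP class. The rule itself uses symbols and no measured value.

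HeyA8, a human cell line established from an ovarian cancer, was transfected with an siRNA duplex at 10 nM, and total RNA was sequenced. The groups were the non-targeting control siNT1 at 24 h and 48 h, siGGGGGC at 24 h and 48 h, and siGGCAGU at 48 h, with 2 libraries in each group and 10 in all. All groups were transfected with lipid, all duplexes of the study carried a passenger strand that was chemically modified, and the wells kept to 48 h had their medium changed at 24 h. The duplicates were wells of 1 cell line, so p-values measure the spread between wells and libraries. The study sequenced these libraries to learn how siGGGGGC kills cells, through its 6mer seed, which is bases 2 to 7 of the guide strand.

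SR proteins carry an arginine and serine rich tail and usually bind exonic enhancers, from where they recruit the U1 and U2 particles to the neighbouring splice sites. hnRNPs coat nascent transcripts and often bind silencers, so that both families compete over the same exons. Many of them also limit their own level, and that of a close relative, by splicing that sends the mRNA to nonsense-mediated decay. This can be through an exon that is included or one that is skipped. Several, such as SRSF1, SRSF3 and PTBP1, are known for high levels in tumours.

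Total counts ran from 19781445 to 42428986 per library. Normalised counts below are counts divided by the TMM library size, and "passed" means an adjusted p below 0.05 in edgeR's quasi-likelihood test with Benjamini-Hochberg adjustment over all 16905 genes. EIF5A, a survival gene the study followed as a target of siGGGGGC, had a log2 fold change of -2.09 with siGGGGGC at 24 h and -3.48 at 48 h, and -0.86 with siGGCAGU. Of the markers of an ovarian epithelial line, KRT7, KRT8 and KRT18 had normalised counts of at least 1943 in every library, while EPCAM stayed at or below 40.6, MUC16 at or below 31 and CDH1 at or below 19.3. The mesenchymal gene VIM was at 20409 or more. PTPRC, CD3E, CD14 and ALB, markers of cells the culture should lack, stayed at or below 6.55, and the endothelial marker PECAM1 at or below 19.1. The small RNA genes RN7SL2 and SNORD3A took between 19.8% and 32% of a library, and this share moved with some of the results described here. It was 32% and 24.2% in replicates 1 and 2 of siGGCAGU, and 19.8% and 23.9% in those of siNT1 at 48 h. These 2 groups also had the widest replicate spread over the genes described. The log2 ratio of the 2 replicates had an SD across the genes tested of 0.444 and 0.308 in them, against 0.125 to 0.194 in the other groups. The strand setting of the counting is not given in the sources used here, and exons of HNRNPA2B1, HNRNPA3, HNRNPAB, HNRNPD, HNRNPH3, HNRNPK, HNRNPM, HNRNPU, HNRNPUL1, SRSF1, SRSF2 and SRSF9 overlap a gene on the opposite strand, so reads from both strands cannot be told apart there if strand was not used. Exons of PTBP1, SRSF1, SRSF2, SRSF4, SRSF9, HNRNPA3, HNRNPK and HNRNPL overlap another annotated gene on the same strand, microRNA genes in part, where shared reads may be missing.

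To determine which of these mRNAs carry a match to a seed, the longest annotated 3′ UTR of each gene was searched for the reverse complement of the seed, GCCCCC for siGGGGGC and ACTGCC for siGGCAGU. These are sense strand matches only, and they do not overlap each other. GCCCCC was in 3 of the 39 genes tested, none of them among the 13 of the SR class, while 31.6% of the 12397 protein-coding genes tested held it. The 3 were PTBP1 with 5 copies, PTBP3 with 1 and HNRNPUL1 with 1. Of all these protein-coding genes, 1.69% held 5 copies or more. ACTGCC was in 11 of the 39, 3 of the SR class and 8 of the hnRNP class, against 36.5% of the protein-coding genes. The PTBP1 matches are shown because PTBP1 stood apart in its number of copies, with the match in capitals (hg38, GENCODE release 44, plus strand, sense). They lie in the 3′ UTR of PTBP1, and the windows of the first pair overlap.
PTBP1, chr19:810827-810852: gggcacagGCCCCCacggccgggccc
PTBP1, chr19:810837-810866: ccccacggccggGCCCCCtggcgacaactt
PTBP1, chr19:811344-811373: tcccttcaccccGCCCCCagggccttccct
PTBP1, chr19:811365-811394: gccttcccttctGCCCCCaggcgggctccc
PTBP1, chr19:811937-811966: gctctttctaccGCCCCCgcgtcctgtccc

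The other 2 GCCCCC matches, in the 3′ UTR of HNRNPUL1 (plus strand) and PTBP3 (minus strand), are given for comparison. The mature miR-34a-5p (RefSeq, GRCh38.p14, minus strand), whose seed siGGCAGU carries, is given with bases 2 to 7 in capitals. Below it are the ACTGCC matches in the 3′ UTR of PTBP2 (plus strand) and TRA2B (minus strand), which both fell with siGGCAGU. They are examples from the 11 genes tested that hold this word. Of those 11, PTBP3, with 2 copies, rose with siGGCAGU, and HNRNPC and SRSF11 did not pass.
HNRNPUL1, chr19:41306626-41306655: ggcccctcctctGCCCCCgccagatcccgt
PTBP3, chr9:112223664-112223693: tgtattccccctGCCCCCgccagtcaaagg
miR-34a-5p, chr1:9151735-9151756: uGGCAGUgucuuagcugguugu
PTBP2, chr1:96816874-96816903: gccagttcccagACTGCCagatttgcccac
TRA2B, chr3:185915372-185915401: agtcttaaagttACTGCCtcaaggcaaagg

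The calls of the genes with and without a match were counted. At 24 h after siGGGGGC, HNRNPUL1 was higher and PTBP1 and PTBP3 did not pass. PTBP1, with its 5 copies, had a log2 fold change of -0.3 ± 0.111 (SE) at 24 h (adjusted p = 0.0703, edgeR). Of the 36 genes without the word, 3 were lower and 1 was higher, with 8.32% of all genes tested lower and 10.6% higher. At 48 h after siGGGGGC, 2 of the 3 genes with GCCCCC were lower and 1 was higher, and of the 36 without it 22 were lower and 5 were higher, with 27.5% of all genes lower and 27.8% higher. At 48 h after siGGCAGU, 8 of the 11 genes with ACTGCC were lower, 1 was higher and 2 did not pass, and of the 28 without it 22 were lower and 6 did not pass, with 24.9% of all genes lower and 27.8% higher. The median log2 fold change with siGGCAGU was -0.41 with the word and -0.65 without it, and that with siGGGGGC at 48 h was -0.32 and -0.38.

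Levels between genes were compared per kilobase of the canonical transcript. In siNT1 the highest SR class genes were SRSF5 and SRSF3, with 4930 and 3335 normalised counts per kb as means over both time points. SRSF5 is a general SR protein, and SRSF3 is the smallest of the family. The highest hnRNP class genes were HNRNPH1, a protein that binds runs of G, with 9950 per kb, and HNRNPC, which binds runs of U in nascent transcripts, with 7120 per kb. HNRNPK, a poly(C) binding protein, followed with 6610 per kb at 24 h and 6660 at 48 h. Among the lower ones, SRSF8, an intronless copy of SRSF2, had 108 per kb in siNT1 at 24 h and HNRNPUL2 had 19.3. The levels spanned a wide range within each class. Reads were counted over all exons of a gene, which are longer than the canonical transcript. SRSF5 has 1496 bases in that transcript and 5357 over all exons, SRSF3 4228 and 7118, and HNRNPH1 2240 and 9480. The order of the genes therefore depends on the length used, and the length over all exons gives another order.

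To determine how the splicing factors responded early, siGGGGGC was compared with siNT1 at 24 h. Few genes passed in the fit of all groups, which pools the spread of the 24 h and 48 h libraries. HNRNPDL fell to 0.506 of its level, SRSF2 and SRSF5 fell by less, and PTBP2 and HNRNPUL1 rose. In the SR class 0 genes were higher (also 0 at an unadjusted p below 0.05 and 0 by DESeq2) and 2 were lower of 13, and in the hnRNP class 2 were higher and 1 was lower of 26. Over all genes tested 10.6% were higher and 8.32% were lower, and 3.72% passed with a change beyond 2-fold. With the libraries of this comparison fitted alone, more passed: 1 SR class gene was higher and 5 were lower, and 4 hnRNP class genes were higher and 7 lower. The number that passed at 24 h thus depended on the fit, and the shares of all genes in that fit were not counted. The median log2 fold change was -0.12 in the SR class, 0.061 in the hnRNP class and 0.0035 over all genes, and that of the hnRNP class was -0.034 with scaling to the total count.

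HNRNPDL (ENSG00000152795, chr4:82422565-82430462, minus strand), a close relative of HNRNPD that shuttles between nucleus and cytoplasm, had 11648 and 11798 normalised counts in siNT1 at 24 h and 5943 and 5914 in siGGGGGC. At 48 h it had 9626 and 10947 in siNT1, 6243 and 6067 in siGGCAGU, and 3404 and 3508 in siGGGGGC. All 6 libraries with siGGGGGC or siGGCAGU lay below all 4 siNT1 libraries, and the siGGGGGC libraries at 48 h were the lowest. The log2 fold change was -0.98 ± 0.0882 (SE, adjusted p = 2.8e-06, edgeR) at 24 h and -1.57 ± 0.0894 (adjusted p = 1.74e-09, edgeR) at 48 h, and with siGGCAGU -0.74 ± 0.0875 (adjusted p = 3.68e-06, edgeR). The fall was larger with siGGGGGC than with siGGCAGU at 48 h, by -0.83 ± 0.0884 on the log2 scale (adjusted p = 1.1e-06, edgeR). Its 3′ UTR, 2341 bases long, held neither word.

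HNRNPD, also called AUF1, is the paralog of HNRNPDL and binds AU-rich elements. It had 1346 and 1309 normalised counts in siNT1 and 1376 and 1235 in siGGGGGC at 24 h, which overlapped. At 48 h it had 2602 and 1438 in siNT1, 871 and 957 in siGGCAGU, and 977 and 1039 in siGGGGGC. The siNT1 replicates at 48 h were far apart, and even the lower of them was above the treated libraries. The log2 fold changes at 48 h were -1 ± 0.183 with siGGGGGC (adjusted p = 0.000265, edgeR) and -1.14 ± 0.184 with siGGCAGU (adjusted p = 8.59e-05, edgeR). So HNRNPDL passed at 24 h and HNRNPD, at -0.024, did not.

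SRSF2 (ENSG00000161547, chr17:76734115-76737333, minus strand), the SC35 protein of nuclear speckles, had 4798 and 4729 normalised counts in siNT1 and 3963 and 3645 in siGGGGGC at 24 h. At 48 h the values were 4164 and 4652 in siNT1, 2149 and 2289 in siGGCAGU, and 2582 and 2494 in siGGGGGC. The treated libraries lay below the controls at each time without overlap. The log2 fold change was -0.32 ± 0.0882 (adjusted p = 0.0175) at 24 h, -0.8 ± 0.0884 (adjusted p = 1.93e-06) at 48 h and -0.99 ± 0.0887 with siGGCAGU (adjusted p = 1.79e-07, all edgeR). The call at 24 h was lost when any library of that comparison was left out, at log2 fold changes between -0.42 and -0.26. SRSF8, which arose from SRSF2, had a log2 fold change of -0.15 at 24 h, which did not pass, and fell at 48 h by 0.52 with siGGGGGC and by 0.79 with siGGCAGU on the log2 scale. Its libraries held 496 and 497 normalised counts in siNT1 at 48 h, 320 and 259 in siGGCAGU, and 349 and 342 in siGGGGGC.

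SRSF5 (ENSG00000100650, chr14:69726900-69772005, plus strand) turned direction. At 24 h it had 7809 and 7954 normalised counts in siNT1 and 6233 and 5348 in siGGGGGC, and at 48 h it had 6215 and 7526 in siNT1 and 9073 and 8654 in siGGGGGC. The siGGGGGC libraries were thus the lowest at 24 h and the highest at 48 h. The log2 fold change was -0.44 ± 0.109 at 24 h (adjusted p = 0.00977) and 0.37 ± 0.108 at 48 h (adjusted p = 0.00938), and the difference of 0.81 ± 0.154 between them passed (adjusted p = 0.00105, all edgeR). In siGGCAGU it had 6582 and 7486, within the range of siNT1 (log2 fold change 0.034, adjusted p = 0.816, edgeR). Single libraries decided part of this: the call at 24 h was lost without either siNT1 library or siGGGGGC replicate 2, and the call at 48 h without siNT1 replicate 1 or siGGGGGC replicate 1 and with scaling to the total count. Over these alternatives the log2 fold change ran from -0.55 to -0.33 at 24 h and from 0.21 to 0.5 at 48 h.

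**Figure D1:**
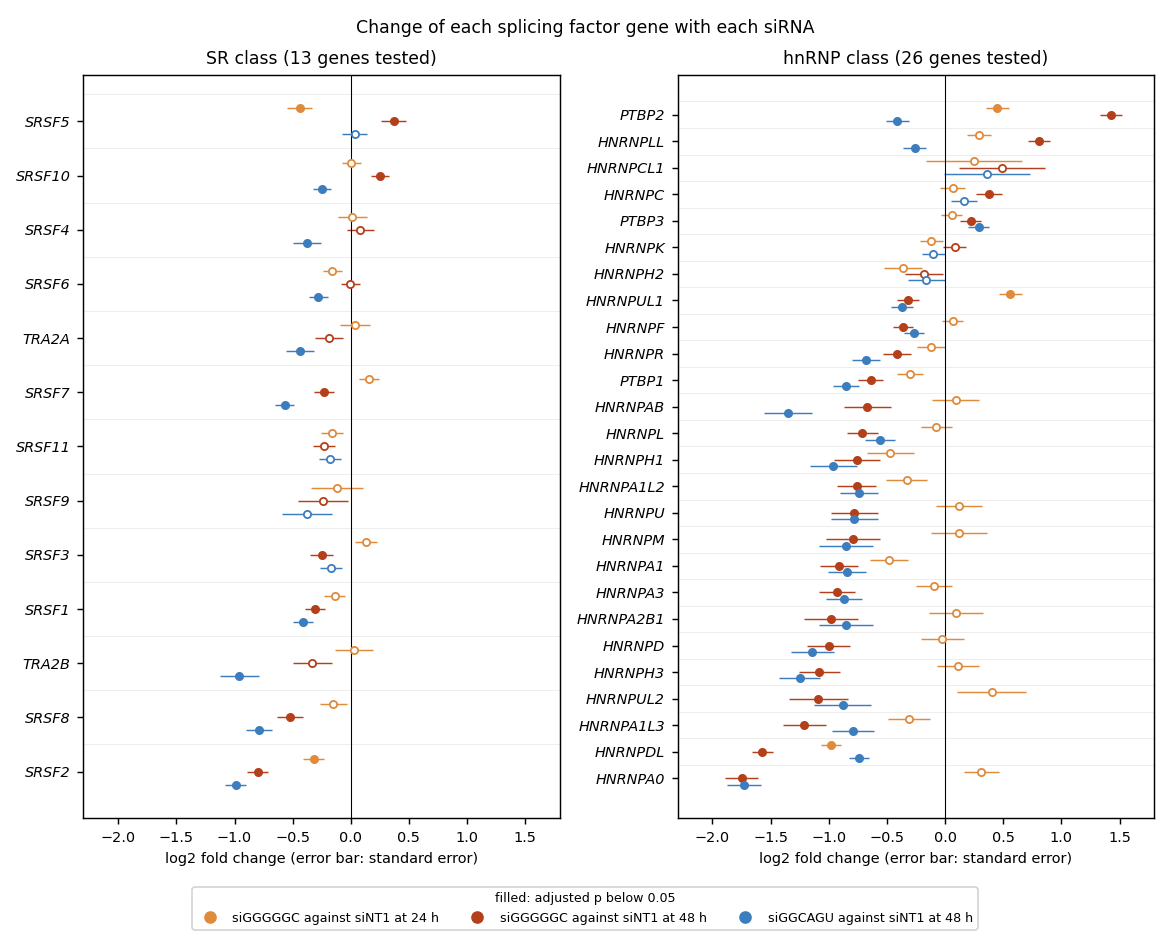
Log2 fold change with its standard error for the 13 SR class genes (left) and 26 hnRNP class genes (right) tested, for siGGGGGC at 24 h (orange), siGGGGGC at 48 h (red) and siGGCAGU at 48 h (blue), each against siNT1, with filled points for an adjusted p below 0.05. At 48 h most hnRNP genes lie left of 0 with both siRNAs, from -1.75 for HNRNPA0, while PTBP2 lies at 1.43 with siGGGGGC and at -0.41 with siGGCAGU.

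**Figure D2:**
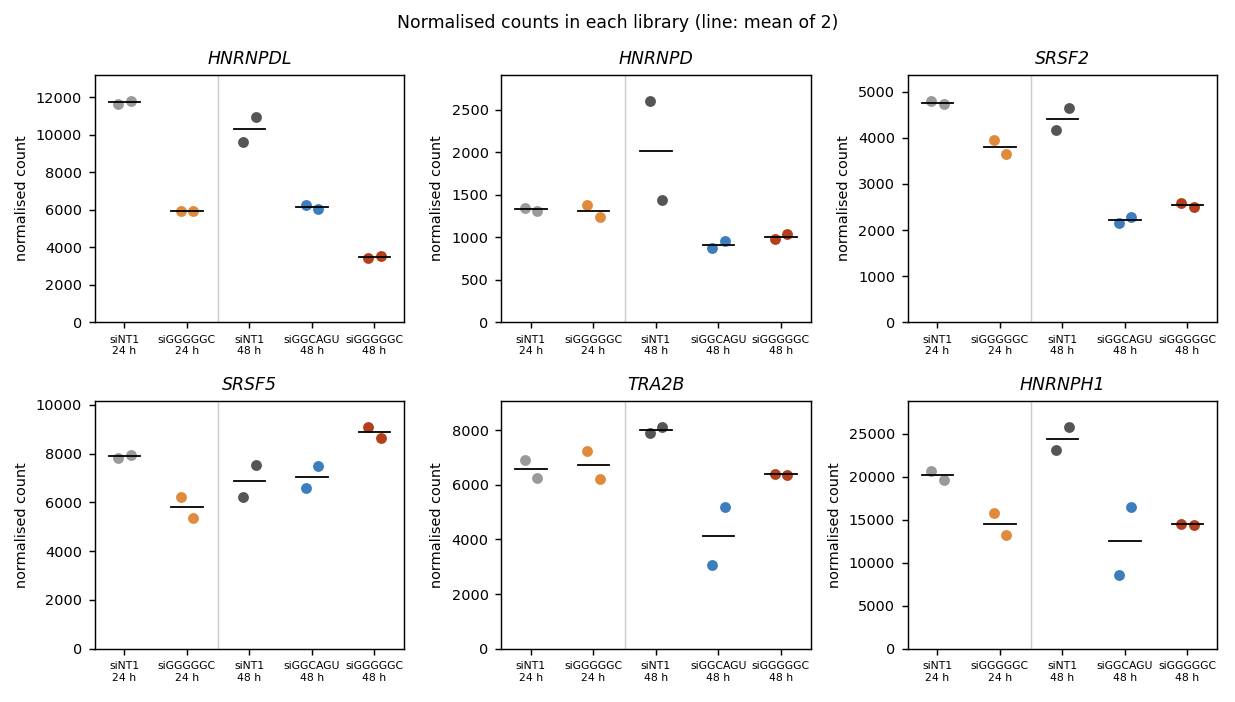
Normalised count of 6 genes in each library, by group, with a line at the mean of the 2 replicates and the axis starting at 0. HNRNPDL is lower in both siGGGGGC groups, SRSF5 is low at 24 h and high at 48 h, and the replicates of siGGCAGU lie far apart for TRA2B and HNRNPH1.

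At 48 h the response was broader. With siGGGGGC most hnRNP class genes fell, led by HNRNPA0 and HNRNPDL, while PTBP2 and HNRNPLL rose, and in the SR class SRSF2 and SRSF8 fell most. Of 26 hnRNP class genes 19 were lower, 4 were higher and 3 did not pass, against 27.5% lower and 27.8% higher over all genes. Of the 13 SR class genes 5 were lower, 2 were higher and 6 did not pass. Beyond 2-fold, 5 hnRNP class genes were lower and 1 was higher, and 21.5% of all genes passed beyond 2-fold. The medians were -0.73 in the hnRNP class, -0.23 in the SR class and -0.011 over all genes. The hnRNP count ranged from 15 to 19 when a library was left out, and the SR count of lower genes from 2 to 9, moving by over 1.5 times in 9 of the 10 fits.

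With siGGCAGU at 48 h most genes of both classes fell. Of the 13 SR class genes 9 were lower and 0 higher (0 also at an unadjusted p below 0.05 and by DESeq2), and of the hnRNP class 21 were lower, 1 was higher and 4 did not pass. The shares over all genes were 24.9% lower and 27.8% higher. Beyond 2-fold, 4 hnRNP class genes were lower (HNRNPA0, HNRNPAB, HNRNPH3 and HNRNPD), against 20.3% of all genes beyond 2-fold in either direction. The medians were -0.38 in the SR class, -0.76 in the hnRNP class and 0.024 over all genes. Both siRNAs were set against the same 2 siNT1 libraries at 48 h, so the falls they have in common are not independent. Without replicate 1 of siGGCAGU, the library with the larger share of RN7SL2 and SNORD3A, 7 SR class and 21 hnRNP class genes were lower. With that share as a covariate, an alternative chosen after seeing the data, 7 and 15 were lower. Over all genes 7468 passed in either direction with the covariate, against 8906 without it.

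HNRNPA0 (ENSG00000177733, chr5:137745651-137754363, minus strand), an intronless gene for a protein that binds AU-rich elements, fell most at 48 h. It had 1296 and 1004 normalised counts in siNT1, 301 and 385 in siGGCAGU, and 316 and 366 in siGGGGGC. The treated libraries were below the controls, and both siRNAs overlapped, with a difference of -0.023 (95% interval -0.35 to 0.3, adjusted p = 0.913, edgeR). The log2 fold change was -1.75 ± 0.144 with siGGGGGC (adjusted p = 8.79e-08) and -1.73 ± 0.143 with siGGCAGU (adjusted p = 7.76e-08, both edgeR). At 24 h it had 469 and 414 in siNT1 and 585 and 508 in siGGGGGC, a difference that did not pass (0.31, adjusted p = 0.178, edgeR). In siNT1 itself HNRNPA0 rose between 24 h and 48 h, by 1.38 ± 0.143 on the log2 scale (adjusted p = 5.5e-05, edgeR).

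HNRNPAB, which binds RNA and a promoter element, had 4354 and 4659 normalised counts in siNT1 at 48 h, 1178 and 2333 in siGGCAGU, and 2825 and 2838 in siGGGGGC. The fall with siGGCAGU was -1.35 ± 0.204 on the log2 scale (adjusted p = 4.71e-05), and that with siGGGGGC -0.67 ± 0.201 (adjusted p = 0.0104, both edgeR). The latter was lost with DESeq2, with either siGGGGGC library left out and with the small RNA share as a covariate. HNRNPH3, a smaller relative of HNRNPH1, had 1930 and 1477 in siNT1, 532 and 875 in siGGCAGU, and 733 and 873 in siGGGGGC. All treated libraries were below both controls, with log2 fold changes of -1.25 ± 0.176 for siGGCAGU (adjusted p = 2.17e-05) and -1.08 ± 0.175 for siGGGGGC (adjusted p = 8.66e-05, both edgeR).

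HNRNPH1 and HNRNPH2 are paralogs with nearly the same protein. HNRNPH1 had 20677 and 19651 normalised counts in siNT1 and 15810 and 13216 in siGGGGGC at 24 h, and at 48 h it had 23147 and 25745 in siNT1, 8557 and 16529 in siGGCAGU, and 14555 and 14372 in siGGGGGC. It fell at 48 h by 0.76 on the log2 scale with siGGGGGC (adjusted p = 0.00451) and by 0.96 with siGGCAGU (adjusted p = 0.000811), and at 24 h its -0.47 did not pass (adjusted p = 0.114, all edgeR). HNRNPH2 had 4072 and 4707 in siNT1 at 48 h, 2953 and 4872 in siGGCAGU, and 4057 and 3720 in siGGGGGC. Its groups lay close or overlapped, and its log2 fold changes of -0.18 and -0.16 did not pass (adjusted p = 0.376 and 0.423, edgeR). The exons of HNRNPH2 overlap the readthrough gene RPL36A-HNRNPH2, and reads in such places may have been left out of its count. The difference between the paralogs was not tested.

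TRA2B, a splicing activator whose own mRNA holds a poison exon, had 7919 and 8113 normalised counts in siNT1 at 48 h, 3047 and 5196 in siGGCAGU, and 6419 and 6378 in siGGGGGC. Both siGGCAGU libraries were the lowest, yet they differed more from each other than the controls did. The fall with siGGCAGU was -0.96 ± 0.167 on the log2 scale (adjusted p = 0.000183), the value with siGGGGGC was -0.33 (adjusted p = 0.109), and TRA2B was higher with siGGGGGC than with siGGCAGU by 0.63 ± 0.167 (adjusted p = 0.00472, all edgeR). Its paralog TRA2A had 1238 and 1180 in siNT1, 738 and 1035 in siGGCAGU, and 1031 and 1090 in siGGGGGC. It fell with siGGCAGU by 0.44 (adjusted p = 0.00627, edgeR), a call that was lost without siGGCAGU replicate 1 and with the small RNA share as a covariate, at log2 fold changes between -0.71 and -0.17 over the alternatives.

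SRSF3 and SRSF7, which are related and both known as export adaptors of mRNA, were higher at 24 h than at 48 h in siNT1. SRSF3 had 15238 and 16125 normalised counts at 24 h and 11393 and 13642 at 48 h, and SRSF7 had 8494 and 8627 and then 6656 and 7291. These calls held in 8 and 9 of 19 alternatives and failed with scaling to the total count. At 48 h SRSF3 had 11254 and 10997 in siGGCAGU and 10683 and 10442 in siGGGGGC, just below the lower siNT1 library. Its log2 fold change was -0.25 with siGGGGGC (adjusted p = 0.0441, edgeR), which held in 10 of 19 alternatives, and -0.17 with siGGCAGU (adjusted p = 0.158, edgeR). SRSF7 had 4764 and 4624 in siGGCAGU and 5775 and 6147 in siGGGGGC. It fell with siGGCAGU by 0.57 (adjusted p = 4.29e-05) and with siGGGGGC by 0.23 (adjusted p = 0.0347), and the siRNAs differed by 0.34 ± 0.0859 (adjusted p = 0.00307, all edgeR). The call of SRSF7 with siGGGGGC held in 12 of 19 alternatives. The calls of both genes with siGGGGGC failed when any siGGGGGC library, either siNT1 library at 24 h or siNT1 replicate 2 at 48 h was left out, at log2 fold changes between -0.4 and -0.12 for SRSF3 and between -0.38 and -0.17 for SRSF7.

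Of the other SR class genes, SRSF1, an activator of splicing known as an oncogene, fell at 48 h with siGGGGGC by 0.31 and with siGGCAGU by 0.41 on the log2 scale. SRSF10, which represses splicing when dephosphorylated, rose with siGGGGGC by 0.25 and fell with siGGCAGU by 0.25, the former in 14 and the latter in 17 of 19 alternatives. SRSF4 and SRSF6 fell with siGGCAGU by 0.38 and 0.28 and had 0.083 and -0.0063 with siGGGGGC, which did not pass. The call of SRSF1 with siGGGGGC failed without siGGGGGC replicate 2 at 48 h, that of SRSF10 with siGGGGGC without siNT1 replicate 1 or either siGGGGGC library at 48 h, and that of SRSF4 with siGGCAGU without siNT1 replicate 1 or siGGCAGU replicate 1. SRSF9 and SRSF11 passed in neither comparison, and SRSF9 had 596 and 1259 normalised counts in the 2 siGGCAGU libraries.

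To compare the siRNAs directly at the same dose and time, siGGGGGC was set against siGGCAGU at 48 h. In the SR class 6 of 13 genes were higher with siGGGGGC (SRSF10, SRSF4, SRSF5, SRSF6, SRSF7 and TRA2B), 7 did not pass, and 0 were lower by edgeR (0 at an unadjusted p below 0.05, 0 by DESeq2). In the hnRNP class 3 of 26 were higher (PTBP2, HNRNPLL and HNRNPAB) and HNRNPDL alone was lower. Over all genes 26.7% were higher and 27.6% were lower, and 23% passed beyond 2-fold. The median was 0.27 in the SR class, 0.019 in the hnRNP class and -0.0086 over all genes. The hnRNP counts depended on the siGGCAGU library used: without replicate 1 there were 7 lower, and without replicate 2 there were 13 higher. The calls of HNRNPAB and SRSF5 failed without siGGCAGU replicate 1, those of SRSF5 and SRSF6 without siGGGGGC replicate 1 and that of SRSF6 without siGGCAGU replicate 2. HNRNPAB also failed with DESeq2. SRSF10 had 3170 and 3140 normalised counts with siGGCAGU and 4510 and 4404 with siGGGGGC, a difference of 0.5 ± 0.0791 on the log2 scale (adjusted p = 6.78e-05, edgeR).

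Of the PTB family, PTBP1 fell with both siRNAs at 48 h, while PTBP2 rose with siGGGGGC and fell with siGGCAGU. PTBP1 is known to repress PTBP2 by skipping an exon of its mRNA, which then undergoes nonsense-mediated decay. PTBP1 (ENSG00000011304, chr19:797075-812327, plus strand) had 2698 and 2722 normalised counts in siNT1 and 2401 and 1989 in siGGGGGC at 24 h, and at 48 h it had 4408 and 3698 in siNT1, 2087 and 2413 in siGGCAGU, and 2554 and 2663 in siGGGGGC. It was lower in every treated library than in the controls of its time. At 48 h it fell by 0.64 ± 0.109 on the log2 scale with siGGGGGC (adjusted p = 0.000154) and by 0.85 ± 0.11 with siGGCAGU (adjusted p = 9.88e-06), whose word is not in its 3′ UTR. The siRNAs did not differ beyond the threshold (0.21 ± 0.11, 95% interval -0.024 to 0.45, adjusted p = 0.119, all edgeR).

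PTBP2 (ENSG00000117569, chr1:96721665-96823738, plus strand), the neuronal PTB, had 780 and 723 normalised counts in siNT1 and 1022 and 1030 in siGGGGGC at 24 h. At 48 h it had 635 and 670 in siNT1, 535 and 454 in siGGCAGU, and 1784 and 1741 in siGGGGGC. It was above the controls with siGGGGGC and below them with siGGCAGU, with no overlap. It rose with siGGGGGC by 0.45 ± 0.0979 (adjusted p = 0.00468) at 24 h and by 1.43 ± 0.0944 (adjusted p = 8.25e-09) at 48 h, and fell by 0.41 ± 0.098 with siGGCAGU (adjusted p = 0.00242, all edgeR). The siRNAs differed by 1.84 ± 0.0982 on the log2 scale (adjusted p = 7.01e-10, edgeR), the most of the 39 genes. The rise at 24 h failed without siNT1 replicate 2 of that time, with log2 fold changes of 0.35 to 0.51 over the alternatives. The longest annotated 3′ UTR of PTBP2, of 10333 bases, holds 1 ACTGCC, at base 3481, and no GCCCCC. The canonical transcript has 3321 bases in all, and which 3′ UTR these cells use was not examined.

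PTBP3 rose slightly with both. It had 8073 and 8285 normalised counts in siNT1 at 48 h, 10646 and 9429 in siGGCAGU, and 9777 and 9338 in siGGGGGC, all treated libraries above the controls. The log2 fold changes were 0.29 ± 0.0892 (adjusted p = 0.0114) and 0.22 ± 0.0892 (adjusted p = 0.0435, both edgeR), and they passed in 14 and 5 of 19 alternatives. Without siGGCAGU replicate 1 the former failed, and the latter failed when any library outside siGGCAGU was left out, over ranges of 0.13 to 0.38 and 0.063 to 0.26.

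HNRNPL and HNRNPLL, which bind CA repeats and of which HNRNPLL is known for CD45 splicing in lymphocytes, moved in opposite directions with siGGGGGC at 48 h. HNRNPL had 2253 and 2331 normalised counts in siNT1 and 1431 and 1367 in siGGGGGC, and HNRNPLL had 471 and 447 against 789 and 821. The log2 fold changes were -0.71 ± 0.132 (adjusted p = 0.000284) and 0.81 ± 0.0942 (adjusted p = 3.09e-06, both edgeR). With siGGCAGU HNRNPL had 1237 and 1848 and HNRNPLL 394 and 373, and both fell, by 0.56 and 0.26. The fall of HNRNPLL held in 13 of 19 alternatives, from -0.42 to -0.22, and failed with DESeq2 and without siNT1 replicate 1, siGGCAGU replicate 2 or siGGGGGC replicate 1 at 48 h. HNRNPLL differed between the siRNAs by 1.07 ± 0.0976 on the log2 scale (adjusted p = 2.04e-07, edgeR), and its 3′ UTR holds neither word.

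HNRNPUL1, a relative of HNRNPU that acts in the DNA damage response, changed with time. It had 702 and 674 normalised counts in siNT1 and 1045 and 987 in siGGGGGC at 24 h, and 1139 and 1019 in siNT1, 880 and 795 in siGGCAGU and 829 and 895 in siGGGGGC at 48 h. The siGGGGGC libraries were above their controls at 24 h and below them at 48 h. The log2 fold changes were 0.56 ± 0.099 (adjusted p = 0.000994) and -0.32 ± 0.0945 (adjusted p = 0.00907), and siNT1 rose by 0.65 ± 0.0965 between the times (adjusted p = 0.000846, all edgeR). The fall at 48 h failed without siNT1 replicate 1 or siGGGGGC replicate 1, with log2 fold changes from -0.49 to -0.25 over the alternatives.

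**Figure D3:**
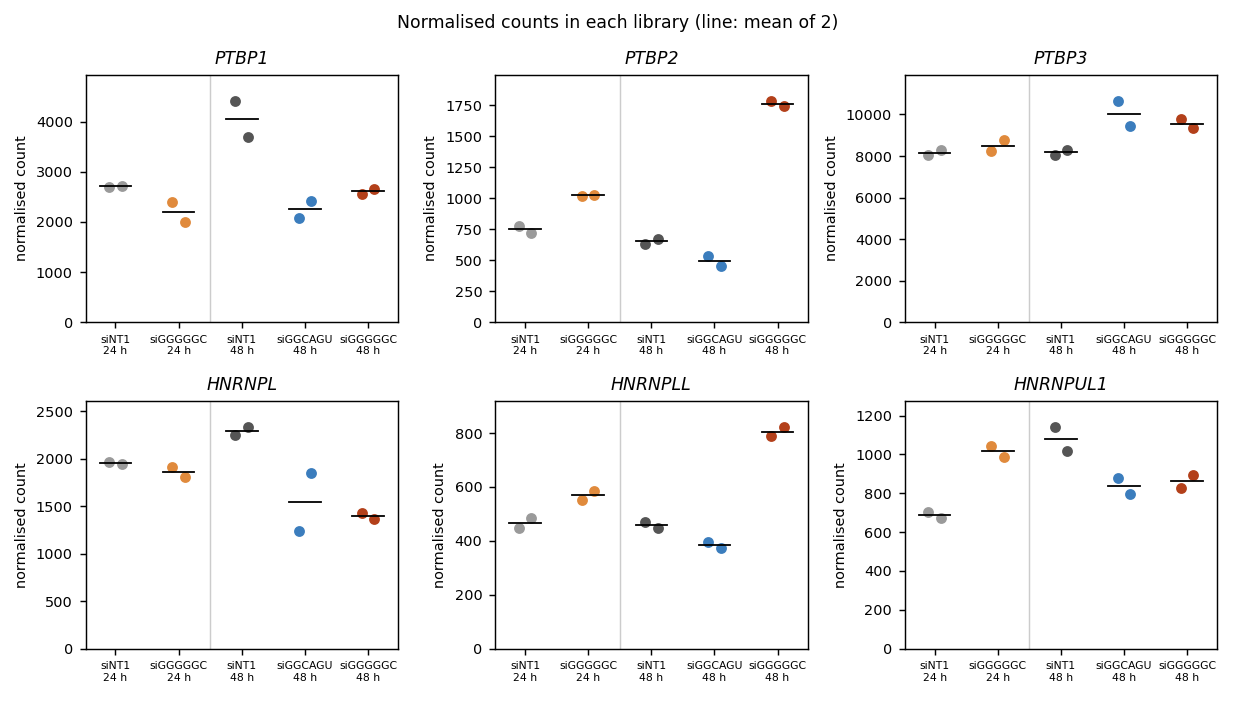
Normalised count of the PTBP genes, HNRNPL, HNRNPLL and HNRNPUL1 in each library, by group, with a line at the mean of the 2 replicates and the axis starting at 0. PTBP2 and HNRNPLL are highest in siGGGGGC at 48 h and lowest in siGGCAGU, while PTBP1 is below siNT1 with both.

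The siNT1 controls themselves changed between 24 h and 48 h for part of the genes. In siNT1 11 of 26 hnRNP class genes rose and 1 fell, against 9.37% higher and 7.2% lower over all genes, and 4 rose beyond 2-fold against 1.53% of all genes beyond 2-fold in either direction. In the SR class 1 of 13 rose (TRA2A) and 2 fell (SRSF3 and SRSF7). The medians were 0.24 in the hnRNP class, -0.098 in the SR class and -0.0039 over all genes. Scaling to the total count without TMM moved the median of all genes to 0.23 here, to -0.17 with siGGGGGC and to -0.13 with siGGCAGU at 48 h. The SR and hnRNP medians were then 0.14 and 0.47, -0.4 and -0.89, and -0.54 and -0.91, so the SR median over time changed sign. HNRNPA2B1, which binds the A2 response element, had 6203 and 5803 normalised counts at 24 h and 13934 and 10950 at 48 h in siNT1, 4368 and 9424 in siGGCAGU, and 5727 and 6892 in siGGGGGC at 48 h. HNRNPM had 1227 and 1136, then 3012 and 2105 in siNT1, 915 and 1886 in siGGCAGU, and 1359 and 1593 in siGGGGGC. HNRNPU, the scaffold attachment factor, had 7380 and 7048, then 14164 and 11655, against 5115 and 9933 in siGGCAGU and 7250 and 7759 in siGGGGGC. In these genes the siGGGGGC libraries at 48 h lay close to siNT1 at 24 h, and siGGCAGU replicate 2 lay nearer to siNT1 at 48 h than replicate 1 did.

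The rise in siNT1 rested on few libraries. The count of 11 was 2 and 3 without replicates 1 and 2 of siNT1 at 24 h and 4 without replicate 1 at 48 h. The RN7SL2 and SNORD3A share fell from 27.8% and 28.3% at 24 h to 19.8% and 23.9% at 48 h in siNT1, so time, the change of medium and this share cannot be told apart in these groups. With the share as a covariate 2 hnRNP class genes (HNRNPA0 and HNRNPUL1) were higher with time and 16 were lower with siGGGGGC at 48 h, against 11 and 19 without it. Over all genes 369 passed with time and 8622 with siGGGGGC at 48 h under the covariate, against 2801 and 9345 without it. Among the genes that lost their call with siGGCAGU under that covariate were HNRNPA2B1, HNRNPL, HNRNPM, HNRNPU and HNRNPUL2. PTBP3, the only hnRNP class gene called higher with siGGCAGU, lost its call too. With siGGGGGC HNRNPM, HNRNPAB and HNRNPR lost theirs. The log2 fold change of HNRNPM with siGGGGGC ran from -1.04 to -0.28, and it failed with DESeq2 and without siNT1 replicate 1 or siGGGGGC replicate 1 at 48 h too.

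HNRNPC and HNRNPK did not share the fall. HNRNPC had 27152 and 26740 normalised counts in siNT1 and 26900 and 29425 in siGGGGGC at 24 h, and at 48 h 17079 and 19220 in siNT1, 22605 and 18089 in siGGCAGU, and 23619 and 23755 in siGGGGGC. It fell with time in siNT1 by 0.57 ± 0.111 (adjusted p = 0.00437) and was higher with siGGGGGC at 48 h by 0.38 ± 0.111 (adjusted p = 0.00827, both edgeR), which failed without siNT1 replicate 1 at 48 h (range 0.23 to 0.46). The fall with time failed without either siNT1 library at 24 h and with the small RNA share as a covariate. HNRNPK had between 16695 and 20494 in all 10 libraries, a narrow range beside the other genes, and no comparison passed, with log2 fold changes between -0.12 and 0.2.

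**Figure D4:**
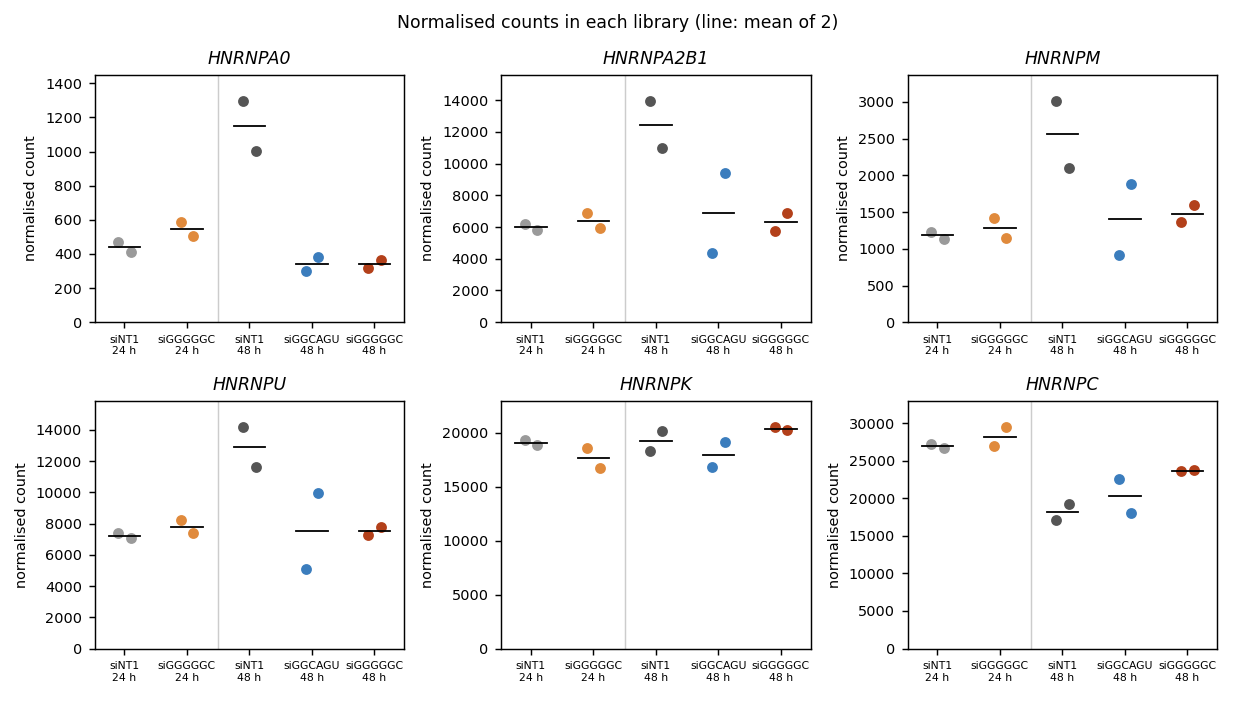
Normalised count of 6 hnRNP genes in each library, by group, with a line at the mean of the 2 replicates and the axis starting at 0. HNRNPA0, HNRNPA2B1, HNRNPM and HNRNPU are highest in siNT1 at 48 h, HNRNPC has its lowest mean there, and HNRNPK lies between 16695 and 20494 throughout.

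The siGGGGGC effect itself differed between the times, as an interaction term, in 17 of the 39 genes. In the hnRNP class the effect was lower at 48 h in 12 and higher in 2, and in the SR class lower in 2 and higher in 1, against 15.2% and 13.4% of all genes and 11.2% beyond 2-fold. With scaling to the total count 6 hnRNP class genes were lower and 1 higher. The medians were -0.51 in the hnRNP class, -0.17 in the SR class and -0.011 over all genes. This term holds the siNT1 libraries of both times, so it shares them with the comparisons above.

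HNRNPF, which binds G runs, fell at 48 h by 0.36 with siGGGGGC and by 0.27 with siGGCAGU on the log2 scale. HNRNPR, a relative of SYNCRIP, fell by 0.41 and 0.68, and HNRNPA3 by 0.93 and 0.87. The call of HNRNPF with siGGCAGU failed without siGGCAGU replicate 2, and that of HNRNPR with siGGGGGC without either siGGGGGC library at 48 h. HNRNPA1, an antagonist of SRSF1 in splice site choice, fell by 0.91 and 0.84, from 10556 and 11904 normalised counts in siNT1 to 6094 and 5891 in siGGGGGC and 4713 and 7825 in siGGCAGU. HNRNPA1L2 fell by 0.76 and 0.74 and HNRNPA1L3 by 1.21 and 0.79. The annotation lists 74 pseudogenes named after HNRNPA1, and since these copies are near-identical, how reads were divided among HNRNPA1, HNRNPA1L2 and HNRNPA1L3 is uncertain. The hnRNP class counts and medians take HNRNPA1, HNRNPA1L2 and HNRNPA1L3 as separate genes, though their falls may not be separate. HNRNPUL2 fell by 1.09 and 0.88, at 307 and 190 normalised counts in siNT1 and 95 to 144 in the treated libraries, and its exons overlap the readthrough gene HNRNPUL2-BSCL2. Its call with siGGCAGU failed without siNT1 replicate 1 at 48 h. HNRNPCL1, a copy of HNRNPC, had at most 25.7 normalised counts and passed in no comparison.

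Of the 5 genes not tested, SRSF12 had 12.3 and 5.18 normalised counts in siGGGGGC at 48 h and at most 1.19 in the other libraries. HNRNPCL2, HNRNPCL3, HNRNPCL4 and HNRNPUL2-BSCL2 had at most 3.93 in any library.

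To compare the families as a whole, the summed normalised count of the SR class was divided by that of the hnRNP class in each library. The ratio was 0.449 and 0.463 in siNT1 and 0.481 and 0.496 in siGGGGGC at 24 h. At 48 h it was 0.362 and 0.393 in siNT1, 0.433 and 0.387 in siGGCAGU, and 0.458 and 0.442 in siGGGGGC. The siGGGGGC libraries were above siNT1 at both times, and siGGCAGU overlapped siNT1. The hnRNP sum was 162674 and 163671 in siNT1 at 48 h, 104339 and 129432 in siGGCAGU, and 122461 and 124104 in siGGGGGC, and the SR sum was 58892 and 64343, 45162 and 50062, and 56142 and 54896. Both sums were lower in the treated libraries, and the hnRNP sum by more. The median log2 fold change of the SR class minus that of the hnRNP class was 0.5 with siGGGGGC and 0.37 with siGGCAGU at 48 h. It was -0.18 with siGGGGGC at 24 h, and without siGGCAGU replicate 1 the value for siGGCAGU was 0.15. At 24 h the median difference was thus negative while the ratio was higher with siGGGGGC, so they disagree there. The sums weigh abundant genes most, and the medians weigh each gene alike. These are descriptions over genes, which are not replicates, and no test was made. Normalised counts are relative to the rest of each library, so they give neither the number of cells nor the amount of RNA per cell.

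**Figure D5:**
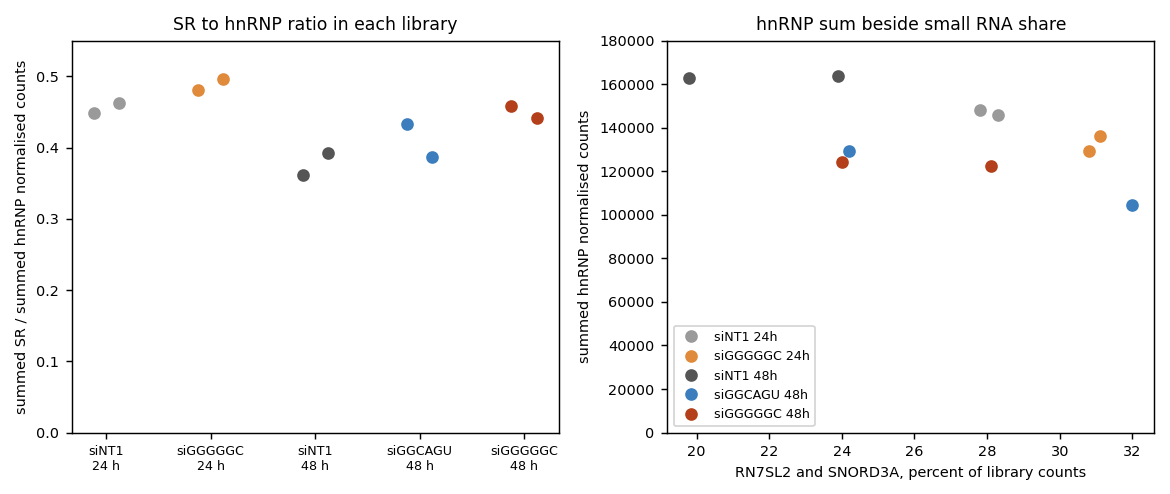
Left, the summed SR over the summed hnRNP normalised count in each library, by group. Right, the summed hnRNP normalised count beside the percent of counts from RN7SL2 and SNORD3A, with colours for the 5 groups. The ratios of siNT1 at 48 h (0.362 and 0.393) and siGGCAGU replicate 2 (0.387) are the lowest, and the hnRNP sums are highest in siNT1 at 48 h.

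Other genes of the splicing pathway were counted in the same fit, where with siGGGGGC at 48 h 27.8% of all genes were higher and 27.5% lower, and with siGGCAGU 27.8% higher and 24.9% lower. Of 34 genes of the core spliceosome, 10 were higher and 11 lower with siGGGGGC at 48 h and 5 higher and 15 lower with siGGCAGU. The shares with siGGGGGC were near those of all genes. SF3A1, a subunit of the U2 particle, fell with siGGGGGC, with log2 fold changes of -0.83 at 24 h and -2.09 at 48 h, and SNRPA, the U1 protein A, fell too, with -0.56 and -0.84. SF3B6, which contacts the branch point, rose by 1.41 with siGGGGGC at 48 h. Of 18 genes for SR kinases and partner proteins, 8 were higher and 2 lower with siGGGGGC at 48 h, and with siGGCAGU 9 were lower and the other 9 did not pass. TNPO3, which imports SR proteins into the nucleus, rose by 0.44 with siGGGGGC and fell by 0.63 with siGGCAGU, and CLK1, a kinase of SR proteins, rose by 0.28 and fell by 0.47. SRPK1 fell with siGGCAGU by 0.27 and had -0.036 with siGGGGGC.

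Of 20 other splicing regulators tested, 2 were higher and 9 lower with siGGGGGC at 48 h, and 2 were higher and 13 lower with siGGCAGU. Over all genes 27.8% were higher and 27.5% lower with siGGGGGC at 48 h, and 27.8% and 24.9% with siGGCAGU. The decay genes below have the same background. RBFOX2 fell at 24 h by 1.14 with siGGGGGC, and TARDBP at 48 h by 1.08. QKI rose with siGGCAGU, with a log2 fold change of 0.66, and had -0.11 with siGGGGGC at 48 h, which did not pass. Of 14 genes of nonsense-mediated decay, the pathway that removes the poison exon forms, 2 were higher and 8 lower with siGGGGGC at 48 h, and 1 was higher and 5 lower with siGGCAGU. UPF1, its helicase, rose with siGGGGGC by 0.53 and fell with siGGCAGU by 0.51. The median log2 fold changes of the core, kinase, regulator and decay lists were 0.018, 0.11, -0.28 and -0.36 with siGGGGGC and -0.26, -0.29, -0.41 and -0.28 with siGGCAGU, against -0.73 and -0.76 for the hnRNP class.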

How the data were processed

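Raw counts per Ensembl gene were deposited for each of the 10 libraries. The authors made them from paired-end reads of RiboZero-depleted total RNA, trimmed with Trimmomatic, aligned to hg38 with TopHat or STAR and assigned to exons with htseq. The labels of these libraries name TopHat and Bowtie2 and do not name STAR. The strand setting is not given in the sources used here. Reads of overlapping or near-identical genes may be missing from counts. The authors' tables of their own comparisons (mean normalised count, fold change and p-value) were not used. Groups were taken from the transfection entry of the labels, where the libraries titled siMxy are siGGGGGC and those titled si34a are siGGCAGU. Genes were matched to GENCODE release 44 (98.9% of identifiers), which gave symbols, lengths and 3′ UTRs.

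With edgeR 4.0.16 in R 4.3.3, genes of low count were removed with filterByExpr, 16905 were fitted with TMM normalisation and the 5 groups as a factor, and the quasi-likelihood test was used with 5 residual degrees of freedom. The threshold was an adjusted p of 0.05, and beyond 2-fold means a log2 fold change past 1 as well. Errors are standard errors from that fit (n = 2 libraries per group). The 95% intervals use its total degrees of freedom, which exceed the 5 residual ones because the fit shares information on spread between genes. DESeq2 1.42.0, other scalings and filters, a replicate block and fits without single libraries were alternatives.

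Members and lists were chosen with earlier results of these data known. Values per library are given for the 3 genes of each class with the largest called change against siNT1 (mean normalised count of at least 100), the 2 of each class with the highest level per length, and paralogs. Other genes given by library, HNRNPA2B1, HNRNPM, HNRNPU, HNRNPA1, HNRNPUL2, SRSF9, SRSF10 and HNRNPK, and the genes named from the pathway lists were chosen after their values were seen.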

Additional observations from a re-analysis of the deposited data

Results flagged for a closer look

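The effect of siGGGGGC on 17 of the 39 splicing factor genes differed between 48 h and 24 h by the interaction term of edgeR's quasi-likelihood test. The differences below are log2 fold changes at 48 h minus those at 24 h. HNRNPA0 differed most, by -2.06 (adjusted p = 5.11e-06), followed by HNRNPUL2 with -1.49, HNRNPH3 with -1.19 and HNRNPA2B1 with -1.07. HNRNPD had -0.98, HNRNPA1L3 -0.9, HNRNPU -0.9, HNRNPUL1 -0.88, HNRNPA3 -0.83, HNRNPL -0.64, HNRNPDL -0.59, SRSF2 -0.47, HNRNPF -0.43 and SRSF7 -0.39. The effect was higher at 48 h for PTBP2, by 0.98 (adjusted p = 7.83e-05), for SRSF5, by 0.81 (adjusted p = 0.00105), and for HNRNPLL, by 0.52 (adjusted p = 0.00992). HNRNPDL fell at both times and more at 48 h, and PTBP2 rose at both and more at 48 h. SRSF5 and HNRNPUL1 passed in opposite directions at the 2 times. For HNRNPA0, HNRNPUL2, HNRNPH3, HNRNPA2B1, HNRNPD, HNRNPU, HNRNPUL1 and HNRNPA3 the siNT1 level itself rose between the times. With the RN7SL2 and SNORD3A share as a covariate, chosen after seeing the data, 21 of the 39 genes passed. Over all genes 5440 of 16905 passed with the covariate, against 4833 without it. Scaling to the total count left 6 hnRNP class genes lower, against 12 with TMM. Most of the 17 calls were lost in some alternative.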

How the results depend on the processing

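Of 108 calls of single genes over the 6 comparisons, 54 passed in all 19 alternatives and 0 changed sign in any. Of 300 counts and median differences per class, 258 stayed within a tolerance of the reported value, 42 moved and 0 reversed. Fits without single libraries are not among these. A count was taken as moved beyond the factor given above for the SR count of lower genes. A median difference was taken as moved beyond 0.116, its pooled SD between replicates. Values within the tolerance were thus not all identical. By the same rule, the hnRNP count of lower genes with siGGGGGC at 48 h had not moved between 15 and 19. The cause of the moves was not tested.

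For siGGGGGC at 24 h, comparing its libraries alone gave 1 SR gene higher, 5 SR lower, 4 hnRNP higher and 7 hnRNP lower. With protein-coding genes only there were 3 hnRNP lower, and with no filter 5. For siGGGGGC at 48 h, total count scaling gave 0 SR higher and no filter 9 SR lower. For siGGCAGU, hnRNP higher became 0 under total count scaling, no filter and its libraries alone. For siGGGGGC against siGGCAGU, no filter gave 2 hnRNP lower. In the interaction, SR higher became 2 with a mean count of at least 50, SR lower 4 with no filter and 5 with its libraries alone, hnRNP higher 1 under total count and with no filter, and hnRNP lower 6 and 19. For siNT1 over time, SR higher became 3 with no filter and 3 alone, and SR lower 0 under total count, 0 with no filter and 1 alone. Total count scaling moved the median of all genes by up to 0.23 on the log2 scale.

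Without the TRA2 and PTBP genes, hnRNP higher was 1 for siGGGGGC at 24 h, 2 at 48 h, 0 for siGGCAGU and 1 in the interaction, SR higher was 0 for siNT1 over time, and the interaction's median difference was 0.51. The small RNA share as a covariate gave 7 hnRNP higher and a median difference of -0.052 at 24 h, 0.36 for siGGGGGC at 48 h, 0 hnRNP higher and 0.16 for siGGCAGU, 3 hnRNP lower between the siRNAs, 4 SR lower in the interaction, and for siNT1 over time 0 SR higher, 0 SR lower, 2 hnRNP higher, 0 hnRNP lower and -0.15. That fit, chosen after seeing the data, called 369 of all genes tested for siNT1 over time, against 2801 without the covariate. It called 3564 against 3203 for siGGGGGC at 24 h, and 9501 against 9183 between the siRNAs.

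Leaving out 1 library gave, for siGGGGGC at 24 h, 0 to 2 SR lower, 1 to 3 hnRNP higher, 1 to 6 hnRNP lower and median differences of -0.19 to -0.028. For siGGGGGC at 48 h it gave 0 to 3 SR higher, 2 to 9 SR lower, 2 to 4 hnRNP higher and 0.31 to 0.54. For siGGCAGU it gave 0 to 2 hnRNP higher and 0.15 to 0.43. Between the siRNAs it gave 3 to 13 hnRNP higher, 1 to 7 hnRNP lower and 0.076 to 0.42. The interaction had 0 to 5 SR lower, 1 to 2 hnRNP higher, 7 to 16 hnRNP lower and 0.31 to 0.47. For siNT1 over time there were 0 to 3 SR higher, 0 to 3 SR lower, 2 to 13 hnRNP higher, 0 to 2 hnRNP lower and -0.34 to -0.21.

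The labels give replicate numbers but do not say that they pair wells. Deviations of same-numbered libraries correlated between -0.357 and 0.145 over 9979 genes, so the numbers were not taken as pairs. With a replicate block 28 genes passed for siGGGGGC at 48 h, 31 for siGGCAGU and 5 at 24 h, against 30, 31 and 5.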
